A study of Homo sapiens with 12 samples.

Results

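The comparison described here is that of HLE cells depleted of YAP and TAZ (siY/T) with HLE cells that received a control siRNA (siCtrl), both cultured in the presence of Sorafenib. It rests on 4 of the 12 RNA-seq libraries of the series, the 2 of siY/T Srf and the 2 of siCtrl Srf cells, and was made for 13515 of the 26258 genes in the deposited table, those that reached 1 CPM in 2 or more of the 12 libraries. CPM values scale the reads of a gene to the library total on all genes, so that libraries of different depth can be compared. HLE is an established cell line from a human hepatocellular carcinoma, and Sorafenib is a multikinase inhibitor of RAF kinases and of receptors such as those for VEGF and PDGF. The sample labels give 5 µM Sorafenib and no time, whereas the study's legend gives 6 µM for 18 h. The other groups of the series were siCtrl and siY/T cells with the vehicle DMSO, and cells transfected with siRNA against ATF4 (siATF4) with either DMSO or Sorafenib, 2 libraries each. All groups are transfected cultures of 1 cell line, and the labels do not say whether the 2 libraries of a group come from separate cultures, so p-values measure the spread between these libraries, which may be technical.

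YAP and its paralog TAZ (gene WWTR1) are transcriptional co-activators without a DNA-binding domain of their own. They act mainly through TEAD factors, which recognise a GGAATG core in enhancers and promoters, often next to AP-1 sites. The Hippo kinases LATS1 and LATS2 phosphorylate YAP and TAZ and keep them in the cytoplasm. In liver cancer YAP and TAZ are known for driving growth, matrix and cytoskeletal genes. ATF4 is a bZIP factor that is translated when cells lack amino acids or suffer other stress, and it binds composite elements with the core TGATGNAA in genes for amino acid synthesis, amino acid uptake and tRNA charging.

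The letters of both kinds of element can be read in the promoters of genes that fell with siY/T under Sorafenib. The stretches below lie within the 250 bases before the RefSeq transcription start (GRCh38.p14), run 5′ to 3′ on the strand of the gene, and show in capitals every GGAATG or CATTCC in the window of the TEAD group and every TGATGNAA or TTNCATCA in that of the ATF4 group. CCN2 and ANKRD1 are shown as widely used YAP/TAZ targets, TMEM40 as one of the large falls, and CHAC1, ATF3, ASNS and IARS1 as a stress effector, a bZIP factor, an amino acid enzyme and a tRNA synthetase. They are examples, and some genes with larger falls held the same letters, such as FGF1 (TEAD letters, -2.66 beside -2.54 for TMEM40) and JDP2 (ATF4 letters, -1.43 beside -0.62 for IARS1).
CCN2, chr6:131951442-131951561, minus strand: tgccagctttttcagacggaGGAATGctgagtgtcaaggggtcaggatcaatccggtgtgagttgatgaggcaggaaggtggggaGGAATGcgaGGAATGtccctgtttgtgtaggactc
ANKRD1, chr10:90921190-90921327, minus strand: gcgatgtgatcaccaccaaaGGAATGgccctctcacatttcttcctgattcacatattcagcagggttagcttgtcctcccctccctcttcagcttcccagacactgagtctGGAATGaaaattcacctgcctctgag
TMEM40, chr3:12759332-12759377, minus strand: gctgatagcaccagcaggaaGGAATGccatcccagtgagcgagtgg
CHAC1, chr15:40953242-40953289, plus strand: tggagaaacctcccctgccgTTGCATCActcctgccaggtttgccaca
ATF3, chr1:212565196-212565243, plus strand: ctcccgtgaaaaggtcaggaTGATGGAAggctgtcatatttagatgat
ASNS, chr7:97872449-97872496, minus strand: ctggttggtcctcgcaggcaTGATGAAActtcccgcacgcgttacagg
IARS1, chr9:92293698-92293730, minus strand: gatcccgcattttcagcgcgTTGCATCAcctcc
The promoter of CCN2 held the TEAD letters 3 times, starting 169, 104 and 95 bases before the start, and that of ANKRD1 held them 220 and 128 bases before it, with the AP-1 letters TGATTCA between them at 195 bases. GGAATG on either strand stood in 11.89% of the 35116 windows of the RefSeq table, TGATGNAA in 3.144% and the palindromic AP-1 letters TGANTCA in 6.573%. The cyclic AMP response element TGACGTCA stood in 1.646%. A match is a description of the letters and not a measured binding site. Raised genes held such letters too, among them CDKN2C and ERAP1 (TEAD letters, changes of 1.155 and 0.85) and LFNG (ATF4 letters, 0.91). A comparison of these shares between lowered and other genes would be void, since a window was found for 388 of the 519 lowered genes, fewer than 80%. No window was found for SLC7A11, CCN1, TAGLN, HMOX1 or YARS1.

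The reads on genes numbered 49600994 and 49137093 in the siCtrl Srf libraries and 46741798 and 42773764 in the siY/T Srf libraries, within the range of 41408348 to 53619732 over all 12. A single read stood for 0.0186 to 0.0241 CPM. The 2 libraries of each group differed by more than counting noise, with a chi-square per gene of 4.34 in siCtrl Srf and 8.30 in siY/T Srf cells, and the widest spread was that of siY/T DMSO cells, 20.7. Of 17 hepatocyte and hepatoma markers, 4 passed the filter, CPS1, CYP2E1, FGB and SERPINA1, whereas ALB, APOB, AFP, TF and FOXA2 had no more than 1 read in any of the 4 libraries. These defining transcripts of hepatocytes were thus at or near 0, but FGB, the fibrinogen beta chain, was not, with 176 and 173 CPM in siCtrl and 231 and 267 CPM in siY/T cells, most of the list's sum of 192 and 188 CPM in siCtrl and 252 and 290 CPM in siY/T cells. Of 6 leukocyte markers PTPRC and CD3E were at 0 in the 4 libraries, and 1 passed the filter, CD68, a lysosomal protein of macrophages, with 22.8 and 23.3 CPM in siCtrl and 30.2 and 26.2 CPM in siY/T cells. None of 6 endothelial and red cell markers passed the filter, and they summed to 0.28 CPM or less.

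The targets of the siRNAs are described first, from the same libraries and fit as the other genes. YAP1 stood at 275 and 259 CPM in the siCtrl Srf libraries and at 48.7 and 46.99 CPM in the siY/T Srf libraries. WWTR1 had 154 and 145 CPM in siCtrl and 49.3 and 54.5 CPM in siY/T cells. Both genes were lower in each siY/T library than in either siCtrl library. The log2 fold changes on the log2(CPM + 0.5) scale, on which all changes here are given, were -2.47 for YAP1 (standard error 0.08; limma, adjusted p = 3.35e-10) and -1.52 for WWTR1 (standard error 0.09; limma, adjusted p = 3.83e-08). In DMSO the changes were -2.41 and -1.50, with differences between the arms of -0.05 and -0.02 and adjusted p-values of 0.751 and 0.912 by limma. Both transcripts remained measurable in siY/T cells, which is a limit of the model. Of the 214 genes picked for a closer description, 41 were picked after their values were seen.

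Loss of YAP/TAZ under Sorafenib lowered 519 genes and raised 826, which are 3.84% and 6.11% of the genes tested. A call needed a two-sided limma P under 0.05, without adjustment, and a log2 fold change of 0.58 or more in size, the thresholds of the study's methods. All 1345 called genes also had a Benjamini-Hochberg adjusted p under 0.05, as did 6614 of the 13515 genes tested whatever their change. For each called gene the 2 siY/T libraries lay beyond the 2 siCtrl libraries. Such separation is likely for genes chosen by P and size, and it was part of the rule for picking genes. Here and below it describes the values and adds no support to a call. Changes of at least 1 on the log2 scale were found for 150 lowered and 233 raised genes, and changes of at least 2 for 11 and 14. Protein-coding genes made up 465 of the lowered and 763 of the raised genes, and long non-coding RNAs 35 and 48. The median change over all genes tested was 0.05. Counts of list members are to be read against these 2 shares, since a list with shares near them is not set apart from other genes.

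**Figure D1:**
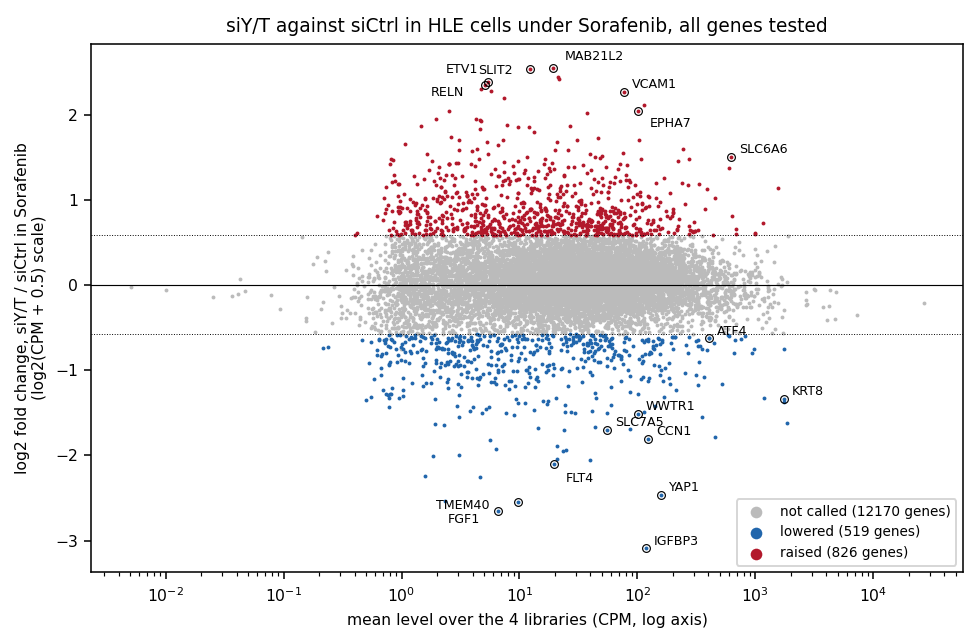
Log2 fold change of siY/T against siCtrl in Sorafenib (vertical axis, log2(CPM + 0.5) scale) against the mean level over the 4 libraries (horizontal log axis, CPM) for the 13515 genes tested, with the dotted lines at changes of 0.58. The 519 lowered genes are blue and the 826 raised genes red, with IGFBP3 at the bottom at -3.09 and MAB21L2 at the top at 2.55.

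Apart from YAP1 itself, the largest falls among genes with at least 5 CPM on average included a growth factor binding protein, a growth factor and a growth factor receptor. IGFBP3, which binds insulin-like growth factors and is a known YAP target, lies on chromosome 7 of GRCh37 from 45951844 to 45961473. It had 212 and 214 CPM in siCtrl and 25.8 and 23.3 CPM in siY/T cells, and its log2 fold change was -3.09 (standard error 0.07; limma, adjusted p = 4.04e-11). The 2 siY/T libraries were close to each other and far below both siCtrl libraries. FGF1, a fibroblast growth factor, had 11.3 and 12.1 CPM in siCtrl and 1.90 and 1.05 CPM in siY/T cells. FLT4, the receptor for the lymphatic growth factor VEGF-C, had 31.7 and 32.8 CPM in siCtrl and 7.38 and 6.83 CPM in siY/T cells. The changes of FGF1 and FLT4 were -2.66 and -2.11, and neither gene's libraries overlapped between the groups. The membrane protein gene TMEM40, whose promoter is printed above, had 16.3 and 17.6 CPM in siCtrl and 2.29 and 2.71 CPM in siY/T cells, a change of -2.54. The remaining falls in this class were those of DYSF, which encodes the membrane repair protein dysferlin, the serpin SERPINB7, the ubiquitin ligase MARCHF4, the calsyntenin CLSTN2, PLAC8, SH2D5 and the glycosyltransferase GALNT16, with changes between -2.05 and -1.82.

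Of the 21 tested members of a list of YAP/TAZ targets, 12 were lowered and 2 raised, a share of 57.14% lowered beside 3.84% of all genes. The median change of the list was -0.65 beside 0.05 for all genes. CCN1 and CCN2 encode secreted matricellular proteins and are the most widely used YAP/TAZ reporters. CCN1 had 179.5 and 204 CPM in siCtrl and 53.2 and 55.5 CPM in siY/T cells. CCN2 had 11.2 and 12.2 CPM in siCtrl and 3.68 and 3.88 CPM in siY/T cells. In both the siY/T libraries were close to each other and far below the controls, with changes of -1.81 and -1.51. FJX1, a Golgi protein, had 76.1 and 86.3 CPM in siCtrl and 29.2 and 27.3 CPM in siY/T cells. GADD45B, a stress-inducible signalling protein, had 62.9 and 64.98 CPM in siCtrl and 25.3 and 24.9 CPM in siY/T cells. The receptor kinase AXL, the kinase NUAK2 and the exchange factor DOCK5 fell as well, with changes of -0.80, -0.87 and -0.62. DOCK5 missed the threshold without replicate 2 of siCtrl Srf or of siY/T Srf, with -0.56 and -0.53. ANKRD1, the muscle ankyrin repeat protein with TEAD letters in its promoter, was near the limit of detection, with 0.887 and 1.12 CPM in siCtrl and 0.193 and 0.0234 CPM in siY/T cells. Its change of -1.32 depends on the pseudocount of 0.5 and ranged from -3.22 to -0.86 over the alternatives, and the values in siY/T cells stood for a few reads. RBMS3 and NT5E, the latter the ecto-nucleotidase CD73, rose by 0.69 and 0.67, and NT5E was at 0.51, short of the threshold, without replicate 1 of siY/T Srf. TGFB2, PTPN14, MYOF, CRIM1, ASAP1, ARHGEF17 and F3 were not called, with changes between -0.49 and 0.39. F3, tissue factor, passed the threshold, at 0.59, without replicate 2 of siY/T Srf.

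Regulators of the Hippo pathway were among the falls. LATS2, which inhibits YAP and TAZ, had 56.8 and 55.2 CPM in siCtrl and 34.2 and 34.6 CPM in siY/T cells, a change of -0.70. NF2, the upstream tumour suppressor merlin, had 229 and 242 CPM in siCtrl and 144 and 149 CPM in siY/T cells, a change of -0.68. The LIM proteins AJUBA and WTIP, which restrain LATS, changed by -0.89 and -0.76, the angiomotin AMOTL2, which retains YAP in the cytoplasm, by -0.65 and the adaptor FRMD6 by -0.65. AMOT, the related angiomotin, went the other way, with 12.3 and 12.6 CPM in siCtrl and 22.1 and 22.2 CPM in siY/T cells. In all, 6 of 26 tested Hippo kinases, adaptors and upstream regulators were lowered and 1 was raised, 23.1% and 3.85% beside 3.84% and 6.11% of all genes. Of the lowered genes, LATS2, AMOTL2 and AJUBA are also on the list of YAP/TAZ targets, so the 2 counts are not separate. Of the TEAD partners, none of TEAD1, TEAD2, TEAD3 and TEAD4 was called, with changes of -0.27, 0.44, -0.15 and -0.29, whereas the cofactor VGLL3 was lowered, with a change of -0.64, which was -0.57 and short of the threshold with a pseudocount of 1.

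**Figure D2:**
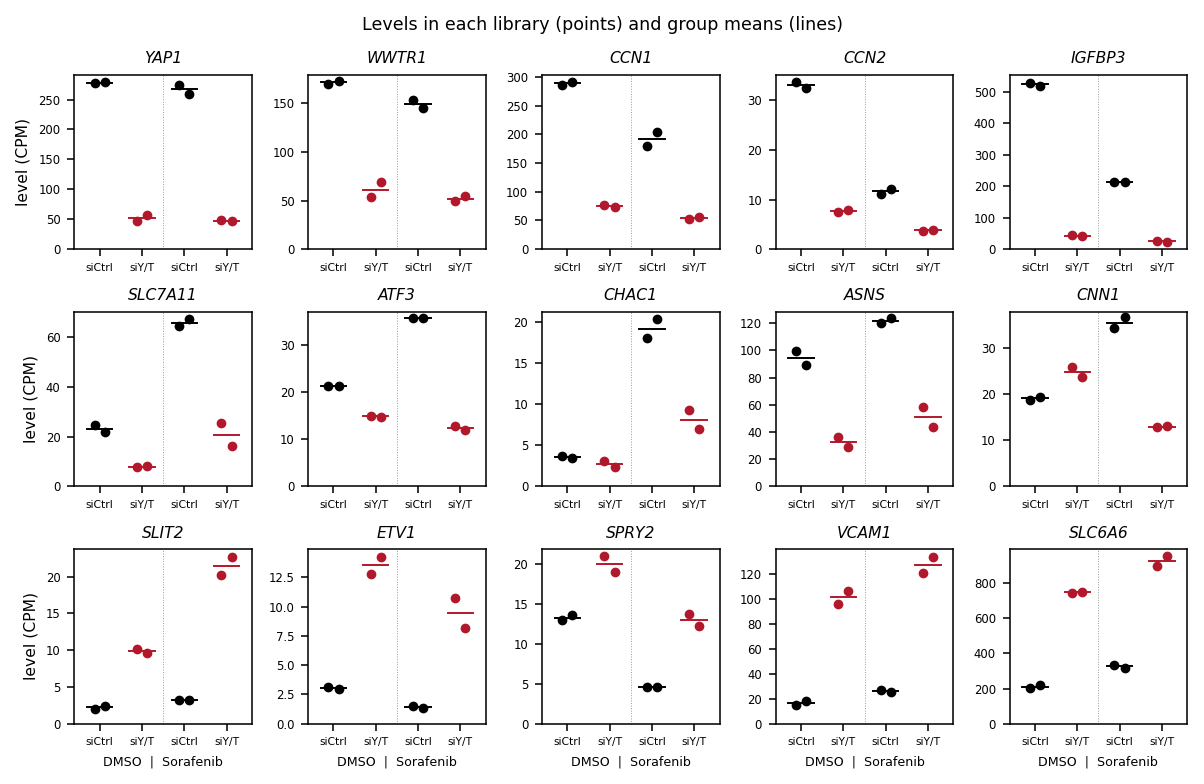
Level (CPM, linear axes from 0) of 15 genes in each of the 8 siCtrl (black) and siY/T (red) libraries, DMSO on the left and Sorafenib on the right of each panel, with lines at the mean of the 2 libraries. The siY/T libraries under Sorafenib lie below both siCtrl Srf libraries for the first 10 genes and above them for SLIT2, ETV1, SPRY2, VCAM1 and SLC6A6. CNN1 stands at 18.7 and 19.5 CPM in siCtrl and 25.9 and 23.7 CPM in siY/T cells with DMSO.

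Genes of the integrated stress response and of amino acid supply fell in part. Among 4 lists that cover stress effectors, amino acid synthesis, amino acid transport and cytosolic tRNA charging, 19 of 82 tested members were lowered and 7 raised, 23.2% and 8.54% beside 3.84% and 6.11% of all genes, with a median of -0.22. Of the 22 stress effectors 5 were lowered and 2 raised, 22.7% and 9.09%. The pseudokinase TRIB3 had 112 and 121 CPM in siCtrl and 59.9 and 51.2 CPM in siY/T cells. The secreted glycoprotein STC2 had 57.96 and 64.6 CPM in siCtrl and 25.1 and 18.7 CPM in siY/T cells. CHAC1, which degrades glutathione, had 18 and 20.3 CPM in siCtrl and 9.22 and 7.01 CPM in siY/T cells. The changes were -1.06 for TRIB3, -1.48 for STC2 and -1.20 for CHAC1, with no overlap between the groups. SESN2 and KLHL24, both known to respond to stress, rose by 0.68 and 0.74.

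Of 21 tested enzymes of amino acid synthesis and one-carbon metabolism, 4 were lowered and 1 was raised, 19.05% and 4.76%. ASNS, which makes asparagine, had 120.4 and 124 CPM in siCtrl and 58.1 and 44 CPM in siY/T cells. PSAT1, of serine synthesis, had 228 and 227 CPM in siCtrl and 116 and 93.4 CPM in siY/T cells. MTHFD2, of the mitochondrial folate cycle, had 169 and 166 CPM in siCtrl and 84.7 and 68.5 CPM in siY/T cells. Their changes were -1.26, -1.12 and -1.13, and that of PHGDH, the entry enzyme of serine synthesis, was -0.66. GLUL, which makes glutamine, rose from 233 and 224 CPM in siCtrl to 383 and 376 CPM in siY/T cells.

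Amino acid transporters went both ways, with 5 of 19 lowered and 4 raised, 26.3% and 21.1%. SLC7A5, the large neutral amino acid transporter LAT1, had 82.5 and 88.04 CPM in siCtrl and 28.7 and 23.2 CPM in siY/T cells, a change of -1.71 (standard error 0.09; limma, adjusted p = 1.36e-08). SLC7A11, the cystine importer, and SLC6A8, the creatine transporter, changed by -1.67 and -1.52, and SLC1A4 and SLC7A1 by -0.74 and -0.72. SLC7A1 missed the threshold without replicate 2 of siY/T Srf, with -0.57. The taurine transporter SLC6A6 had 333 and 318 CPM in siCtrl and 895 and 954 CPM in siY/T cells, a rise of 1.50. SLC3A1, SLC6A15 and SLC43A2 rose by 1.44, 0.75 and 0.62, and SLC43A2 was at 0.57 after TMM scaling, short of the threshold. Among the 20 cytosolic aminoacyl-tRNA synthetases, CARS1, MARS1, GARS1, YARS1 and IARS1 were lowered, with changes from -0.75 to -0.62, and 16 of the 20 were below 0. IARS1 missed the threshold when replicate 2 of siY/T Srf was left out, with -0.55. None of 17 mitochondrial synthetases was called, with changes between -0.19 and 0.24.

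The 2 siY/T Srf libraries were not alike for these genes. Of the 19 lowered members of the 4 lists, 18 were lower in replicate 2 than in replicate 1 of siY/T Srf, with a median difference of -0.22 on the log2 scale, whereas the corresponding median in siCtrl Srf was 0.06. For all 519 lowered genes the number was 306 with a median of -0.04, and for the 12 lowered YAP/TAZ targets it was 6. The part of this difference between replicates in the falls was not tested.

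ATF4 and several of its bZIP partners were lowered as well. Of 26 tested bZIP factors, 9 were lowered and 3 raised, 34.6% and 11.5% beside 3.84% and 6.11% of all genes. ATF3 had 35.8 and 35.8 CPM in siCtrl and 12.9 and 12.02 CPM in siY/T cells, a change of -1.49 (standard error 0.06; limma, adjusted p = 1.68e-09). ATF4 mRNA had 484 and 492 CPM in siCtrl and 317 and 314 CPM in siY/T cells. DDIT3, the stress factor CHOP, had 80.6 and 77.6 CPM in siCtrl and 42.9 and 44.9 CPM in siY/T cells. The changes of ATF4 and DDIT3 were -0.63 and -0.84, and those of the partners CEBPG and MAFK were -0.78 and -0.76. CEBPD, a CCAAT-binding factor of the acute phase, rose from 9.98 and 9.85 CPM in siCtrl to 24.4 and 30.8 CPM in siY/T cells. Of 29 tested chaperones and other genes of the endoplasmic reticulum stress response, 1 was raised, DNAJB9, and none was lowered, with a lowest change of -0.30. The call of DNAJB9, 0.64, was lost without replicate 2 of siCtrl Srf or replicate 1 of siY/T Srf, where it was 0.53 in each case.

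The changes with siATF4 against the same siCtrl Srf libraries are given beside these without a test of likeness, since both comparisons share those controls. Of the 82 members of the 4 lists, siATF4 lowered 28 and raised 6, with a median of -0.26, and of all genes it lowered 18.7% and raised 10.3%. The siATF4 libraries of SLC7A5 stood at 27.7 and 27.7 CPM and those of ASNS at 32.8 and 31.3 CPM. PHGDH, CBS and CHAC1 changed by -0.66, -0.92 and -1.20 with siY/T and by -2.17, -2.81 and -2.76 with siATF4. SLC6A6 and GLUL changed by 1.50 and 0.73 with siY/T and by -2.23 and -0.79 with siATF4. DDIT3 changed by 0.32 with siATF4, and CCN1 and CCN2 by 1.30 and 2.66.

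**Figure D3:**
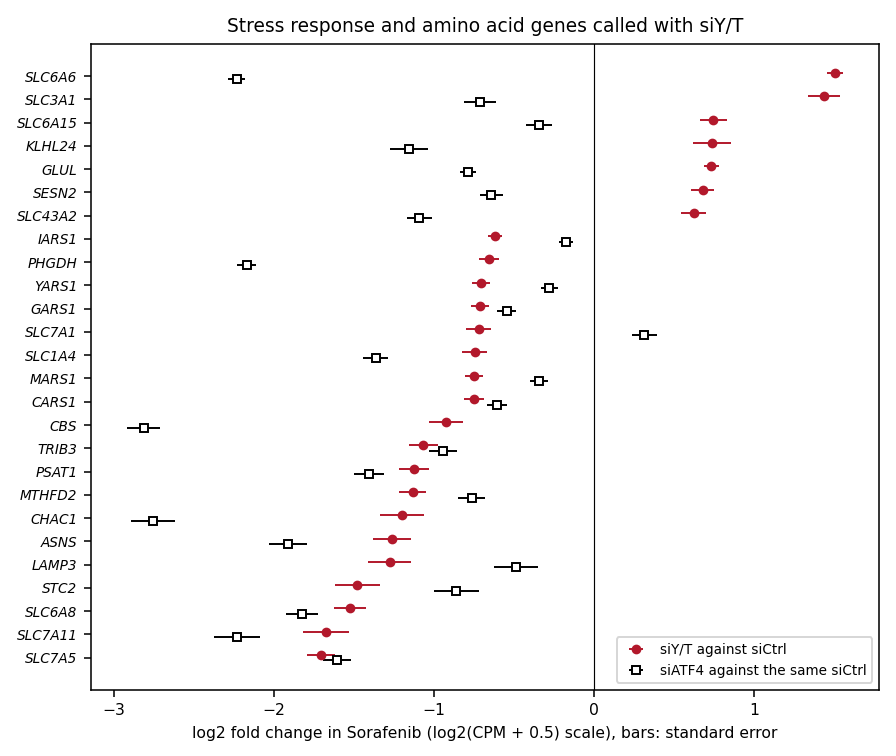
Log2 fold change in Sorafenib (horizontal axis, log2(CPM + 0.5) scale, bars: standard error from limma) of the 26 stress response and amino acid genes called with siY/T, for siY/T (red circles) and siATF4 (open squares) against the same 2 siCtrl Srf libraries. SLC6A6 lies at 1.50 with siY/T and -2.23 with siATF4, and SLC7A5 at -1.71 and -1.61.

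Antioxidant and iron genes moved in small numbers. Of 29 tested genes of lipid peroxidation and ferroptosis defence 3 were lowered and 3 raised, 10.3% each beside 3.84% and 6.11% of all genes. HMOX1, heme oxygenase, changed by -0.83, the ferrireductase STEAP3 by -0.88 and the transferrin receptor gene TFRC by -0.67. TFRC was at -0.53 without replicate 2 of siY/T Srf, short of the threshold. SAT1, which acetylates polyamines, had 10.04 and 9.50 CPM in siCtrl and 30.3 and 30.4 CPM in siY/T cells, a rise of 1.59. The fatty acid ligase ACSL5 and the iron exporter SLC40A1 rose by 1.26 and 0.88. GPX4, AIFM2 and ACSL4 were not called, with changes of -0.35, -0.48 and -0.13. In glutathione metabolism, GGT1, which splits extracellular glutathione, had 21.5 and 21.2 CPM in siCtrl and 68.6 and 74.8 CPM in siY/T cells, a rise of 1.72, and it was the 1 member raised among 23 tested. GCLM, a subunit of the rate-limiting enzyme of glutathione synthesis, was the 1 member lowered, at -0.61, and missed the threshold without replicate 2 of siY/T Srf, at -0.56.

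Of the AP-1 and immediate early genes 5 of 19 were lowered and 1 was raised, 26.3% and 5.26% beside 3.84% and 6.11% of all genes. JUN had 195 and 217 CPM in siCtrl and 78.99 and 73.8 CPM in siY/T cells. FOSL1 had 80.8 and 86.8 CPM in siCtrl and 43.1 and 30.4 CPM in siY/T cells. JUND had 58.2 and 58.96 CPM in siCtrl and 34.1 and 34.9 CPM in siY/T cells. These 3 subunits of AP-1 changed by -1.43, -1.20 and -0.76, and the Krüppel-like factors KLF6 and KLF10 by -0.81 and -0.71. EGR1 was called raised at 0.61, but from 0.202 and 0.244 CPM to 0.471 and 0.748 CPM, and the call was lost with a pseudocount of 1 (0.39), after TMM scaling (0.577) and without replicate 1 of siCtrl Srf or replicate 2 of siY/T Srf (0.56 and 0.43).

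Feedback genes of the RAF-MEK-ERK pathway, which Sorafenib acts on at the level of RAF, were raised more often than lowered. Of 26 tested members 10 were raised and 4 lowered, 38.46% and 15.4% beside 6.11% and 3.84% of all genes. In DMSO, where 11.0% of all genes were raised and 3.61% lowered, 7 members were raised and 1 was lowered. The difference between the arms passed an adjusted p of 0.05 by limma for 10 of the 26. ETV1, SPRY1, SPRY4, DUSP6 and EPHA4 were not among them. The ETS factor ETV1 had 1.51 and 1.30 CPM in siCtrl and 10.8 and 8.18 CPM in siY/T cells, a change of 2.38 (standard error 0.12; limma, adjusted p = 9.68e-09). ETV5, a relative, had 2.04 and 2.32 CPM in siCtrl and 7.06 and 6.85 CPM in siY/T cells. SPRY2, a Sprouty inhibitor of receptor signalling, had 4.64 and 4.54 CPM in siCtrl and 13.7 and 12.2 CPM in siY/T cells. SPRY1 and SPRY4, DUSP6, the ERK phosphatase, and the receptor EPHA4 rose too, by 1.94, 1.53, 1.35 and 1.70. The SPRY1, SPRY4 and DUSP6 levels were low, under 4 CPM in each siCtrl Srf and siY/T Srf library. CCND1, cyclin D1, rose from 121 and 127 CPM to 217 and 180.3 CPM, and its change of 0.67 was 0.54, short of the threshold, without replicate 1 of siY/T Srf. The members lowered were other dual-specificity phosphatases, DUSP8, DUSP1, DUSP16 and DUSP7, with changes of -2.00, -0.87, -0.65 and -0.63, and DUSP7 was at -0.56, short of the threshold, without replicate 2 of siY/T Srf. DUSP8 stood at 5.06 and 5.33 CPM in siCtrl and 0.834 and 1.03 CPM in siY/T cells.

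Receptors and ligands of growth factors went both ways. ERBB3, the neuregulin receptor, had 134 and 132 CPM in siCtrl and 39.7 and 41.96 CPM in siY/T cells, a change of -1.69, and 4 of 11 members of the EGF family and its receptors were lowered and none raised, 36.4% lowered beside 3.84% of all genes. HBEGF, a ligand of the EGF receptor, changed by -1.08. The other members lowered were NRG1 and EREG, at -0.60 and -0.67. NRG1 was at -0.574 without replicate 2 of siCtrl Srf and at -0.553 without replicate 1 of siY/T Srf, short of the threshold. EREG had 0.726 and 0.855 CPM in siCtrl and 0.321 and 0.304 CPM in siY/T cells. Its call was lost with a pseudocount of 1 (-0.45) and after quantile normalization (-0.52). KIT, a receptor that Sorafenib inhibits, was lowered, at -0.99. The fibroblast growth factor receptor FGFR4 had 37.5 and 38.7 CPM in siCtrl and 88.4 and 88.02 CPM in siY/T cells, a rise of 1.20. PDGFD, a platelet-derived growth factor, rose by 1.68. Of 18 fibroblast, platelet-derived and vascular growth factors and receptors 5 were lowered and 4 raised, 27.8% and 22.2%. IGFBP7 rose from 165 and 166 CPM to 350.0 and 399.6 CPM, opposite in direction to IGFBP3.

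Of 30 actin cytoskeleton and SRF target genes 6 were lowered and 1 was raised, 20% and 3.33% beside 3.84% and 6.11% of all genes, and 25 were below 0. SRF, the serum response factor, is a transcription factor and not the label Srf for Sorafenib. CNN1, the smooth muscle calponin, had 34.3 and 36.7 CPM in siCtrl and 12.99 and 13.02 CPM in siY/T cells. TAGLN, transgelin, had 21.4 and 24.8 CPM in siCtrl and 8.39 and 8.95 CPM in siY/T cells. TAGLN2 had 440.5 and 459.9 CPM in siCtrl and 201 and 199 CPM in siY/T cells. The changes were -1.41, -1.36 and -1.17, all with groups that did not overlap, and FHL2, ZYX and MYH9 changed by -0.73, -0.61 and -0.75. ZYX, the focal adhesion protein zyxin, was at -0.578 without replicate 2 of siCtrl Srf and at -0.574 without replicate 2 of siY/T Srf, both short of the threshold. MYH9, non-muscle myosin, was at -0.48 after quantile normalization, short of the threshold. ACTA2, smooth muscle actin, was called raised from 1.57 and 1.67 CPM to 2.59 and 2.83 CPM, a call lost with a pseudocount of 1, TMM scaling or quantile normalization and without replicate 1 of siCtrl Srf or replicate 2 of siY/T Srf (0.50 to 0.56).

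Keratins of simple epithelia were among the most abundant lowered genes. KRT8 had 2457 and 2558 CPM in siCtrl and 982 and 998 CPM in siY/T cells. KRT18, its partner in keratin filaments, had 707 and 735 CPM in siCtrl and 312 and 332 CPM in siY/T cells. The pair changed by -1.34 and -1.16, and the tight junction gene CLDN1 by -0.67. JUP, plakoglobin, rose by 0.95. The mesenchymal marker SNAI1 was lowered as well, at -0.66. Of 18 epithelial and mesenchymal markers 6 were lowered and 2 raised, 33.3% and 11.1% beside 3.84% and 6.11% of all genes.

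Of the matrix proteases and the plasminogen system 6 of 21 tested members were lowered and 2 raised, 28.6% and 9.52% beside 3.84% and 6.11% of all genes. The plasminogen activators PLAT and PLAU were lowered, at -0.71 and -0.65, though PLAU was at -0.55 after quantile normalization and -0.578, just short of the threshold, without replicate 1 of siY/T Srf. TIMP1, a metalloproteinase inhibitor, rose from 113 and 116 CPM to 196 and 196 CPM. LOX, which cross-links collagen, was lowered, at -1.46, whereas SERPINH1, the collagen chaperone, rose by 0.77. Of 30 laminin and integrin genes 5 were raised and 2 lowered, 16.7% and 6.67%, and all genes were likewise raised more often than lowered. Those raised included LAMB1 by 0.73 and ITGB8 by 1.70. LAMA4, a laminin of vessels and muscle with 0.605 and 0.773 CPM in siCtrl and 4.24 and 4.54 CPM in siY/T cells, rose by 2.04. HSPG2, perlecan, was lowered, at -0.90.

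Among glycolytic and hypoxia-response genes 5 of 31 were lowered and none was raised, 16.1% lowered beside 3.84% of all genes. ADM, the vasodilator adrenomedullin, had 41.1 and 46.8 CPM in siCtrl and 13.3 and 17.2 CPM in siY/T cells. PFKP, a phosphofructokinase, had 476 and 524 CPM in siCtrl and 248 and 225 CPM in siY/T cells. ENO2, ANGPTL4 and NDRG1 made up the rest, with changes of -0.97, -0.93 and -0.68, beside -1.50 for ADM and -1.08 for PFKP. The other 26 members were not called.

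The largest rise among genes with at least 5 CPM on average was that of MAB21L2, a developmental gene on chromosome 4 of GRCh37 from 151503303 to 151505845. It had 5.28 and 5.23 CPM in siCtrl and 31.7 and 34.7 CPM in siY/T cells, a change of 2.55 (standard error 0.09; limma, adjusted p = 4.89e-10). VCAM1, a cell adhesion molecule for leukocytes, had 27.1 and 25.1 CPM in siCtrl and 121 and 134 CPM in siY/T cells. VCAM1 rose by 2.27, and both siY/T values lay above both siCtrl values. RELN, the matrix protein reelin, the vasopressin receptor AVPR1A and RASL10B rose by 2.35, 2.19 and 2.27, each from below 3 CPM. FXYD2, a regulator of the sodium pump, was raised by 2.44 and the overlapping read-through gene FXYD6-FXYD2 by 2.42, and since they share exons their reads cannot be told apart. The ciliary gene CYS1 and the ephrin receptor EPHA7 rose by 2.01 and 2.04.

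Axon guidance genes were raised more often than lowered, with 12 of 31 tested members raised and 5 lowered. These shares were 38.71% and 16.1% beside 6.11% and 3.84% of all genes, so both were above those of all genes. SLIT2, a secreted guidance cue, had 3.27 and 3.28 CPM in siCtrl and 20.2 and 22.7 CPM in siY/T cells, a change of 2.54. ROBO2, a receptor for SLIT proteins, had 29.9 and 28.2 CPM in siCtrl and 68.9 and 71.4 CPM in siY/T cells, a change of 1.26. Ligand and receptor were thus both higher in each siY/T library than in either siCtrl library. SEMA3E, a secreted semaphorin, had 125 and 116 CPM in siCtrl and 256 and 255 CPM in siY/T cells. The membrane-anchored SEMA7A and the netrin NTN4 were lowered, at -1.33 and -1.09, with NTN4 at 258 and 247 CPM in siCtrl and 110.2 and 127 CPM in siY/T cells. L1CAM, an adhesion molecule of axons, had 8.29 and 7.71 CPM in siCtrl and 1.22 and 1.36 CPM in siY/T cells, a change of -2.25. In the Wnt pathway 5 of 24 were raised and 2 lowered, 20.8% and 8.33% beside 6.11% and 3.84% of all genes. The Frizzled receptors FZD8, FZD4 and FZD1 rose by 1.58, 1.54 and 0.87, the ligands WNT5A and WNT7B by 1.17 and 0.88, and the ligand WNT2B was lowered, at -1.15. Of the TGF-beta and BMP list 7 of 28 were raised and 1 was lowered, 25% and 3.57%, including the co-receptor TGFBR3 at 0.97 and the ligand BMP6 at 0.86. The BMP targets ID1 and ID2 were raised at 0.77 and 0.79, but without replicate 1 of siY/T Srf they were at 0.48 and 0.54, short of the threshold.

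Interferon-stimulated and antigen presentation genes rose in part. Of 32 tested interferon-stimulated genes 7 were raised, 21.9% beside 6.11% of all genes, none was lowered and 27 were above 0, with a median of 0.42 beside 0.05 for all genes. IFI44 had 8.67 and 8.63 CPM in siCtrl and 17.97 and 15.01 CPM in siY/T cells. IFIT3 had 10.2 and 8.93 CPM in siCtrl and 16.5 and 17.2 CPM in siY/T cells. XAF1, OAS2, TRIM22, GBP2 and OAS1 were the other members raised, from 1.22 for XAF1 to 0.63 for OAS1. OAS1 lost its call after TMM scaling and without replicate 2 of siY/T Srf, with 0.576 and 0.569. ISG15 and MX1 were not called, with changes of 0.03 and 0.39, though MX1 passed the threshold, at 0.585, without replicate 1 of siY/T Srf. Of 19 genes of antigen presentation by MHC class I 18 were above 0 and 3 were raised, 15.8%. The peptide-trimming protease ERAP1 had 144 and 139 CPM in siCtrl and 259 and 252 CPM in siY/T cells, a change of 0.85. The tapasin-related TAPBPL rose by 0.99, and ERAP2, at 0.60, lost its call under TMM scaling (0.54), after quantile normalization (0.57), by edgeR and by DESeq2 (0.54 each), without replicate 2 of siCtrl Srf (0.54) and without replicate 1 of siY/T Srf (0.56). Of 19 chemokine and cytokine genes 5 were lowered and 1 was raised, 26.3% and 5.26%, the raised member being NFKBIA, the inhibitor of NF-kappaB. Those lowered included CXCL5 at -1.55 and BIRC3 at -0.59, and BIRC3 lost its call under 3 of 14 alternatives. The number lowered ranged from 2 to 9 over the alternatives.

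Single regulators of apoptosis and the cell cycle rose, and others fell. BMF, a BH3-only protein that opposes BCL2, had 38.5 and 37.02 CPM in siCtrl and 113 and 110.5 CPM in siY/T cells. BCL2L11, the related BIM, had 10.5 and 9.99 CPM in siCtrl and 19.7 and 19.99 CPM in siY/T cells. They rose by 1.55 and 0.92, and 3 of 28 apoptosis regulators were raised and 1 lowered, 10.7% and 3.57% beside 6.11% and 3.84% of all genes. The third was TNFSF10, the death ligand TRAIL, with 0.141 and 0.244 CPM in siCtrl and 1.24 and 1.64 CPM in siY/T cells. The lowered member was HRK, at -0.98, with 0.968 and 1.14 CPM in siCtrl and 0.321 and 0.257 CPM in siY/T cells. The other 24 were not called, and of the 28 members 16 were above 0 and 12 below. CDKN2C, an inhibitor of CDK4 and CDK6, had 51.3 and 52.2 CPM in siCtrl and 114 and 118 CPM in siY/T cells, and CDKN2B, another such inhibitor, was lowered, at -0.70.

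Genes of proliferation, ribosomes and respiration held few or no calls. Of 34 genes of mitosis and the spindle 33 were below 0 with a median of -0.28, but 2 were called lowered. They were ANLN, anillin, with 416 and 394 CPM in siCtrl and 252 and 240.2 CPM in siY/T cells, and CENPE, a kinetochore motor, which missed the threshold without replicate 1 of siCtrl Srf or replicate 2 of siY/T Srf (-0.53 and -0.52). None of 39 genes of DNA replication and nucleotide supply was called at this threshold, with changes between -0.58 and 0.17. None of 41 ribosomal protein genes and none of 37 respiratory chain genes was called, with changes between -0.36 and 0.12 and between -0.44 and 0.30. The heat shock list had 1 call, the small heat shock gene HSPB8, which was lowered, at -1.01.

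The remaining lists had calls in both directions or few calls. Of 24 NRF2 targets 5 were lowered and 2 raised, 20.8% and 8.33% beside 3.84% and 6.11% of all genes, the latter AKR1C3 and ABCC3, a drug and conjugate efflux pump, at 1.38 and 1.15. ABCC2, a pump of the same family, was lowered, at -0.79, and among 9 ABC drug efflux genes it and ABCC3 were the called ones. In the Notch pathway 3 of 13 were lowered and 3 raised, 23.1% each. Those raised included the glycosyltransferase LFNG and the ligand JAG1, at 0.91 and 0.69. Of 31 collagens and collagen-processing genes 2 were lowered and 3 raised, 6.45% and 9.68%. Of 16 fatty acid genes 2 were lowered, 12.5%, with FADS3 at -1.02. Of 9 metallothionein and zinc transport genes 1 was lowered, 11.1%, which was MT1E, at -0.74.

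**Figure D4:**
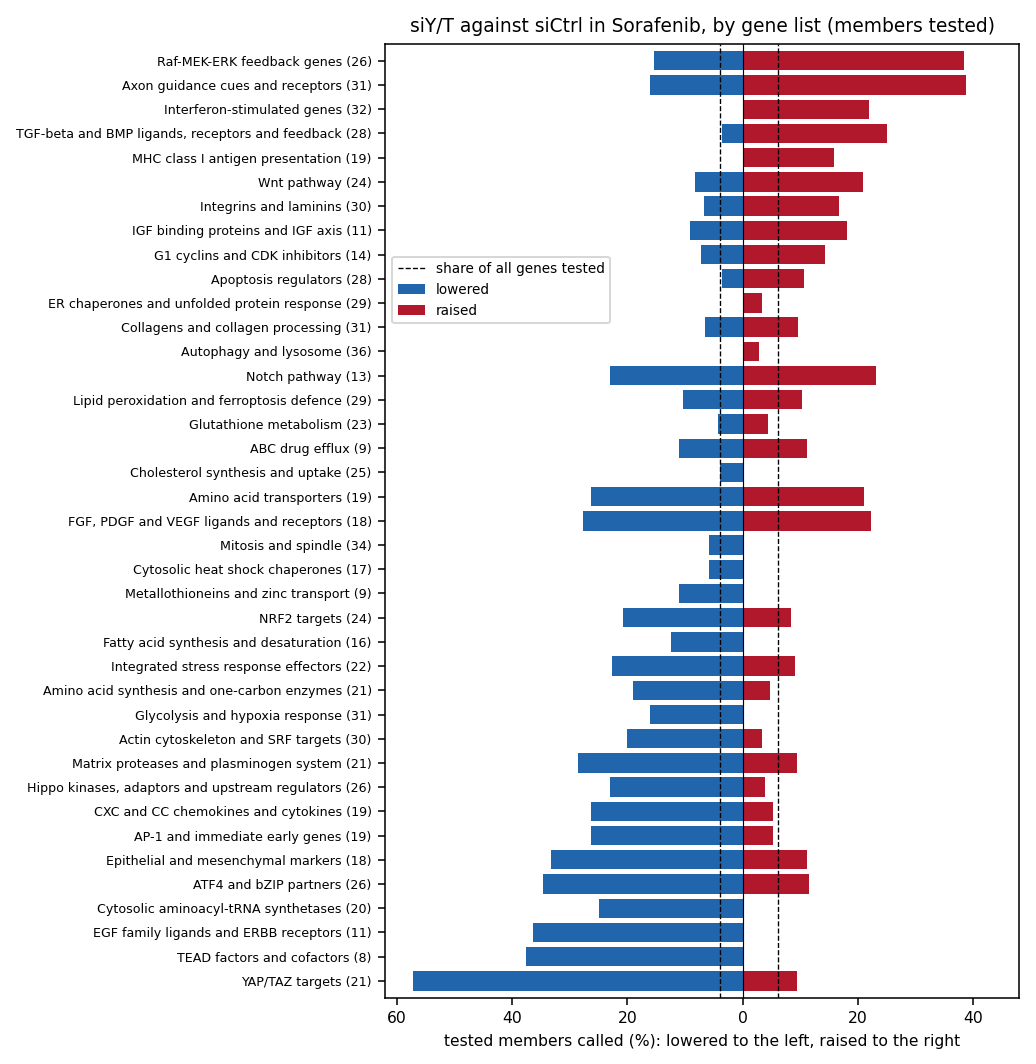
Share of tested members called lowered (blue, to the left) and raised (red, to the right) in siY/T against siCtrl under Sorafenib, in percent, for the gene lists with at least 8 tested members and at least 1 call, with the number tested in brackets and dashed lines at 3.84% and 6.11% of all genes. YAP/TAZ targets lie at the bottom with 57.14% lowered, and RAF-MEK-ERK feedback and axon guidance genes at the top with 38.46% and 38.71% raised. The lowered members of the TEAD factors and cofactors list (37.5%) are the siRNA targets YAP1 and WWTR1 and the cofactor VGLL3. The depletion itself thus accounts for most of that bar, which is no result about the list.

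Whether the effect of YAP/TAZ loss was the same with and without the drug was tested as the difference between the arms, which share no library. In DMSO, siY/T lowered 488 genes and raised 1485, 3.61% and 11.0% of the genes tested. Of the 519 genes lowered in Sorafenib, 260 were also lowered in DMSO, which is 50.1% of the one list and 53.3% of the other, and 469 had a change below 0 there. Of the 826 genes raised in Sorafenib, 657 were also raised in DMSO, 79.5% of the one list and 44.2% of the other, and 817 were above 0. The difference itself passed an adjusted p of 0.05 by limma for 2978 genes, 22.0% of those tested, with the effect lower in Sorafenib for 1923 and higher for 1055. Among the genes called in Sorafenib it passed for 252 of the lowered and 202 of the raised. The number depended on single libraries of both arms. It was 1581 without replicate 2 of siCtrl DMSO, 1623 without replicate 2 of siCtrl Srf, 1949 without replicate 1 of siY/T Srf and 4575 without replicate 2 of siY/T DMSO.

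Of the lists with at least 8 tested members, the cytoskeletal genes held the highest share of differences. In 23 of 30 actin cytoskeleton and SRF target genes the effect differed between the arms, beside 22.0% of all genes, and between 16 and 26 of them did so under the alternatives tried. CNN1 stood at 18.7 and 19.5 CPM in siCtrl and 25.9 and 23.7 CPM in siY/T cells with DMSO. Its change was 0.37 there and -1.41 in Sorafenib, a difference of -1.78 (limma, adjusted p = 1.74e-06). TAGLN stood at 20.1 and 18.8 CPM in siCtrl and 20.8 and 18.9 CPM in siY/T cells with DMSO, a change of 0.03 beside -1.36 in Sorafenib. FHL2 stood at 46.4 and 43.98 CPM in siCtrl and 48.96 and 41.6 CPM in siY/T cells with DMSO, and ZYX changed by 0.11 there. The median change of the list was 0.08 in DMSO and -0.24 in Sorafenib. The plasminogen activator PLAU changed by 0.09 in DMSO and -0.65 in Sorafenib, a difference of -0.73 (limma, adjusted p = 7.68e-05), and perlecan, HSPG2, by -0.05 and -0.90.

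Several stress response genes had lower, more negative effects in Sorafenib than in DMSO. For ATF3 the change was -0.50 in DMSO and -1.49 in Sorafenib, a difference of -0.99 (limma, adjusted p = 3.56e-05). DDIT3 changed by -0.15 in DMSO, from 26.2 and 25.2 CPM to 23.4 and 22.8 CPM, and by -0.84 in Sorafenib. For STC2, CHAC1 and TRIB3 the differences were -0.97, -0.85 and -0.69, with adjusted p-values of 0.00527, 0.00834 and 0.00233 by limma, and those of STC2 and CHAC1 lost their call without a filter on low values. Amino acid genes were divided in this respect. The transporters SLC6A8 and SLC1A4 had differences of -0.89 and -0.68 (limma, adjusted p = 0.00115 and 0.00135). Smaller differences of -0.36, -0.35 and -0.31 passed for MTHFD2, SLC7A1 and CARS1 (limma, adjusted p = 0.0455, 0.0391 and 0.0241) but lost their call under 8, 7 and 6 of the 18 alternatives. SLC7A5, PSAT1, PHGDH and IARS1 had differences of -0.02, 0.02, -0.02 and 0.00, none of which passed the threshold. Over the alternatives the difference of SLC7A5 ranged from -0.17 to 0.13 and that of IARS1 from -0.06 to 0.07. The effect differed between the arms in 11 of 22 stress effectors, 8 of 21 enzymes, 8 of 19 transporters and 6 of 20 cytosolic synthetases, 50%, 38.1%, 42.1% and 30% beside 22.0% of all genes. Under the alternatives these counts ranged from 9 to 13, from 2 to 9, from 3 to 10 and from 3 to 8. JUN and JUND had lower effects in Sorafenib, with differences of -0.85 and -1.28, and with DMSO JUND had 39.7 and 40.6 CPM in siCtrl and 59.7 and 56.6 CPM in siY/T cells.

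Of the 32 interferon-stimulated genes 19 were raised in DMSO, where 11.0% of all genes were raised. The effect differed between the arms for 15, 46.9% beside 22.0% of all genes, or for 7 to 15 under the alternatives. IFIT1 changed by 1.52 in DMSO and 0.28 in Sorafenib (difference -1.23; limma, adjusted p = 0.000136). Genes whose siY/T effect was higher in Sorafenib included the feedback inhibitor SPRY2, with 0.57 in DMSO and 1.40 in Sorafenib, and SAT1, with 0.71 and 1.59. Of the YAP/TAZ targets 12 of 21 were lowered in each arm, beside 3.84% of all genes in Sorafenib and 3.61% in DMSO. CCN2 stood at 33.7 and 32.5 CPM in siCtrl and 7.47 and 7.85 CPM in siY/T cells with DMSO, and IGFBP3 at 528 and 518 CPM and 44.3 and 41.97 CPM. Their effects were smaller in size in Sorafenib, with differences of 0.53 and 0.49 (limma, adjusted p = 0.0075 and 0.00532), and both calls were lost without a filter on low values.

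**Figure D5:**
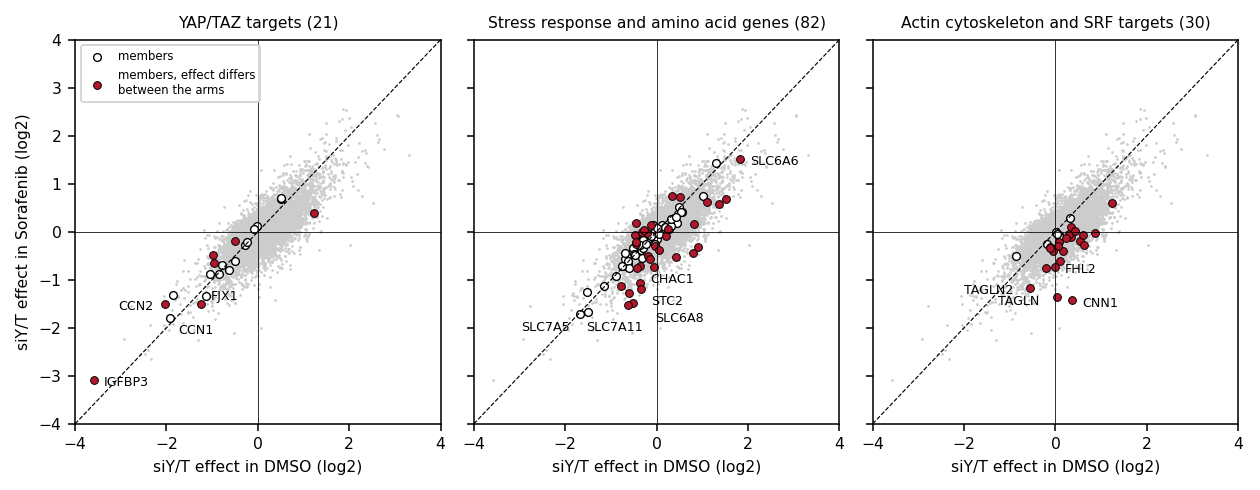
Effect of siY/T in Sorafenib (vertical axis, log2 fold change) against that in DMSO (horizontal axis, log2 fold change) for all genes tested (grey) and the members of 3 groups of lists (circles, red where the difference between the arms had an adjusted p under 0.05), with the dashed line at equal effects. Of the cytoskeletal genes 23 of 30 are red, CNN1 and TAGLN farthest below the line, and of the YAP/TAZ targets 7 of 21 are red.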

How the data were processed

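Total RNA of HLE cells was sequenced as poly(A) mRNA in 12 libraries, 2 in each of 6 groups. The authors used STAR and the hg19 genome for mapping, kept unique hits, counted them over RefSeq exons with QuasR and normalized with edgeR; whether counting used strand is not given in the sources used here. The deposited values are CPM. Every CPM value was a whole multiple of the value of 1 read (tolerance 0.001 reads; 100% of values), so depth could be recovered, and reads per library ranged from 41408348 to 53619732. The study's methods speak of triplicates, but the labels and the table hold 2 libraries a group, which alone limits the precision.

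Genes that reached 1 CPM in 2 or more libraries were fitted with limma 3.58.1 on log2(CPM + 0.5), with 1 coefficient per group over all 12 libraries, a mean-variance trend and Benjamini-Hochberg adjustment. Calls needed an unadjusted P under 0.05 with a change of 0.58 or more in size. The difference between the arms was called at an adjusted p under 0.05. Members of the 46 lists, the lists and the tests were chosen with earlier results of these data known, so list counts carry no test and are read against the share of all genes called. Genes were picked by rule: both siRNA targets, genes the study names, the 12 largest falls and rises at 5 CPM or more without overlap, up to 5 called members a list with the same limits, the 5 largest differences between the arms in each direction at 5 CPM or more, and members that define a pathway. Of the 214 genes, 41 were added after their values were seen, and some that the rule picks are not reported here or not described singly. Alternatives were other pseudocounts, filters and scalings, a replicate block, fewer libraries, and edgeR 4.0.16 and DESeq2 1.42.0 on the recovered reads. Gene positions are from GENCODE on GRCh37, and promoter letters from RefSeq on GRCh38.p14.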

Additional observations from a re-analysis of the deposited data

Results flagged for a closer look

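The effect of siY/T differed between Sorafenib and DMSO by at least 1 on the log2 scale, with an adjusted p under 0.05 by limma for the difference itself, for 18 of the 214 picked genes and for 75 of all genes tested. These 18 differences kept their call under all 18 alternatives tried, except that of MUC16 without a filter on low values. Each is given as the effect in Sorafenib minus that in DMSO. A smaller difference passed for many others, 102 of the 214 in all.

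Genes with a lower effect in Sorafenib fell into those lowered there and those raised less. The phosphatase gene DUSP8 had the largest difference among the picked genes, -2.06, and stood at 1.60 and 2.06 CPM in siCtrl and 1.91 and 1.96 CPM in siY/T cells with DMSO, where no change was called. CNN1 differed by -1.78, FLT4 by -1.57, TAGLN by -1.39 and JUND by -1.28. FLT4 had 13.4 and 13.5 CPM in siCtrl and 9.01 and 9.30 CPM in siY/T cells with DMSO, so that its siCtrl level was higher in Sorafenib and its siY/T level was lower there.

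The genes raised in DMSO and raised less, or not called, in Sorafenib included the early response gene EGR1, with a difference of -1.91 and 5.20 and 5.97 CPM in siCtrl and 35.8 and 33.04 CPM in siY/T cells with DMSO, although its level under Sorafenib was below 1 CPM in all 4 libraries. The mucin gene MUC16 differed by -1.72, the p38 kinase activator MAP2K6 by -1.53, the interferon-induced GTPase gene GBP2 by -1.33 and IFIT1 by -1.23. GGT1 and AKR1C3, an aldo-keto reductase, differed by -1.03 and -1.02. MUC16 varied widely within its groups, from 17.1 and 29.5 CPM in siCtrl to 179 and 291 CPM in siY/T cells with DMSO.

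Genes with a higher effect in Sorafenib included 4 that encode secreted proteins, FGB, CXCL5, CCL2 and BMP6. FGB, the fibrinogen beta chain, differed by 1.24, with 368 and 431 CPM in siCtrl and 225 and 254 CPM in siY/T cells with DMSO and 176 and 173 CPM and 231 and 267 CPM in Sorafenib. The chemokine genes CXCL5 and CCL2 differed by 1.23 and 1.03, both called lowered in DMSO, and the apoptosis inhibitor gene BIRC3 by 1.02. In Sorafenib CXCL5 and BIRC3 were themselves called lowered, at -1.55 and -0.59, so their higher effect was a smaller fall. CCL2 was not called in Sorafenib, at 0.18. INSYN2B, with 26.9 and 24.2 CPM in siCtrl and 25.7 and 28.4 CPM in siY/T cells with DMSO, differed by 1.21, and the ligand gene BMP6 by 1.04, both raised in Sorafenib and not called in DMSO.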

How the results depend on the processing

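For the 214 picked genes, 2922 of 2983 alternative values of the change in Sorafenib stayed on the same side of the threshold, 58 lost the call, 3 gained it and 0 reversed. For their differences between the arms 3486 of 3839 stayed, 271 lost the call, 82 gained it and 0 reversed. Of 2700 counts and medians of the lists 557 moved by more than 1.5 times or by more than the spread between replicates. The cause was not tested.

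The numbers lowered and raised in Sorafenib were 774 and 832 by edgeR and 748 and 801 by DESeq2, both on the recovered reads, 150 and 233 at an adjusted p under 0.05 with changes of 1 or more, and 519 and 791 without the PCDHA and PCDHG rows, an alternative added after seeing the data. They ranged from 504 to 577 and from 802 to 883 with 1 library left out. The lowered share of all calls was 38.6%, but 47.0% after TMM scaling, 46.6% after quantile normalization, 48.2% by edgeR and 48.3% by DESeq2. In DMSO 789 genes were lowered after quantile normalization, 739 by edgeR and 771 by DESeq2, with a range of 466 to 696 lowered and 1479 to 1560 raised when 1 library was left out, and 110 were lowered and 419 raised at an adjusted p under 0.05 with changes of 1 or more. The number of differences between the arms was 2978, but 1831 without a filter on low values, 670 at a difference of at least 0.58, and 1581 to 4575 with 1 library left out.

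The replicate numbers were not shown to pair the libraries, since there are only 2 and the correlation of deviations between siCtrl Srf and siY/T Srf was 0.1003. With the replicate number as a block 519 genes were lowered and 826 raised in Sorafenib, 488 and 1485 in DMSO, and the difference passed for 2814.

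With 2 libraries a group and a single cell line, spread between cultures is poorly known, and a change under 0.58 was not called whatever its p. Levels under about 1 CPM stand for few reads and depend on the pseudocount.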

Other observations

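Gene families by symbol were counted over all genes tested, 158 of them with at least 10 members, and those named here were chosen after their values were seen. Among the protocadherins, which are adhesion proteins best known from neurons, 52 of 61 were raised and none was lowered by siY/T under Sorafenib, 85.2% beside 6.11% of all genes. In DMSO, where 11.0% of all genes were raised, 54 of 61 were raised. The median change was 0.73 in Sorafenib and 0.70 in DMSO. By cluster the count was 14 of 15 for PCDHA, 12 of 17 for PCDHB and 21 of 22 for PCDHG genes, with median changes of 0.83, 0.79 and 0.69. The PCDHA genes share their last exons with each other, as do the PCDHG genes, so the rows of a cluster share reads and are not separate measurements. Without the PCDHA and PCDHG rows 791 genes were raised.

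Of 21 histone genes by symbol 13 were raised and none was lowered, 61.9% raised beside 6.11% of all genes, with a median of 0.69 in Sorafenib and 0.81 in DMSO. In DMSO 15 histone genes were raised, beside 11.0% of all genes. Most of these genes belong to multigene clusters with near-identical coding sequences, and their mRNA mostly lacks a poly(A) tail, so that poly(A) libraries see part of it. H2BC5 had 8.83 and 8.12 CPM in siCtrl and 23.4 and 25.7 CPM in siY/T cells, a change of 1.48, and H2BC12 and H2AC6 changed by 1.41 and 1.31. Of the semaphorins 6 of 14 were raised and 1 was lowered, 42.9% and 7.14% beside 6.11% and 3.84% of all genes. The numbers were the same in DMSO, where 11.0% of all genes were raised and 3.61% lowered. Of the SNHG host genes of small nucleolar RNAs 4 of 21 were lowered, 19.05% beside 3.84% of all genes. None of them was raised, and their median was -0.31.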
